A study of Rattus norvegicus and Mus musculus with 34 samples.

Results

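The myelin and myelinating Schwann cell genes are Pmp22, Mbp, Prx, Mag, Cldn19, Ugt8, Sox10 and Egr2, 8 of the 20022 genes in the rat tables. The genes were listed by name and selected on levels and fold changes of these same rats, so their levels and differences across the rats are given as a description, without a test. RNA-seq had been done on healing tissue taken from a standardized periodontal bone defect in the rat mandible. In the sensory nerve+ group the rats had the defect alone, and in the sensory nerve− group they had the defect and a transection of the inferior alveolar nerve, the sensory nerve of the lower jaw, with a segment of nerve removed. Both groups were wild-type male Sprague-Dawley rats of 6 to 8 weeks that carried the same defect, and the tissue was labelled as mixed cells. Tissue was collected at days 3, 7 and 14, from 3 sensory nerve+ rats at day 3 and from 4 rats in each of the other 5 groups. Cultures of RAW264.7, a mouse macrophage line, had been stimulated for 6 h with 100 ng/ml LPS, a bacterial cell wall product, 6 of them alone and 5 with 10 nM CGRP, a neuropeptide of sensory nerves.

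Myelin in peripheral nerve is the membrane that a Schwann cell winds around an axon. Sox10 marks the Schwann cell lineage at all stages, and Egr2, also called Krox20, works with it to switch on the genes of myelin. Contact with axons keeps these genes on in the adult nerve, and Schwann cells that lose their axon turn down myelin genes while they keep lineage genes such as Sox10 and S100b. In bulk tissue, fewer Schwann cells and less RNA of a gene per Schwann cell cannot be told apart.

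The sequence upstream of Mag and Cldn19 is shown because these 2 genes had the largest estimated day 14 differences among the 8, and because each holds a motif of the factors in the group. Mag had 0 to 3 counts in the sensory nerve− rats of day 14, so the size of its difference is not known. Promoters of 7 of the 8 genes were matched in RefSeq (rat build GRCr8), and Sox10 was not. The 250 bases before each start were searched on both strands for ACAAAG and ACAATG, motifs that SOX proteins bind, and for GTGGGCG, a motif that EGR proteins bind. The line for Mag is chr1:95291045-95291294, minus strand of GRCr8, and the line for Cldn19 is chr5:138148325-138148574, plus strand of GRCr8. Capitals mark the motif, which in Mag is ACAAAG on the opposite strand, 152 bases before the start, and in Cldn19 is GTGGGCG, 140 bases before the start.
Mag: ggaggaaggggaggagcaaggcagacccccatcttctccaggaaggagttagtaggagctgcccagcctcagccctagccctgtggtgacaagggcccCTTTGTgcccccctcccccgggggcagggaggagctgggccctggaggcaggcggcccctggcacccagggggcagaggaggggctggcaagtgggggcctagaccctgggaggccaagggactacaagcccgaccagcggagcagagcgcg
Cldn19: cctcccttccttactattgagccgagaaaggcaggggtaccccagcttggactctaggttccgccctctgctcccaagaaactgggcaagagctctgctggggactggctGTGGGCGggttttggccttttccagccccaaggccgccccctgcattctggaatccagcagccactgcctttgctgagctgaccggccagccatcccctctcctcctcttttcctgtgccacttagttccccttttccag
Of all 33469 promoter windows of this length, 16.3% held ACAAAG, 11.1% ACAATG and 6.27% GTGGGCG, so a match in single genes is common. Mbp had 2 promoter entries, of which 1 held ACAAAG once and ACAATG 2 times, and Pmp22, Prx, Ugt8 and Egr2 held none of the 3 motifs.

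The 23 rat libraries held 14854389 to 18742274 counts each. Sensory nerve− replicate 2 of day 3 stood apart from its group. It had 99.2 CPM (read counts scaled by TMM to a common library total) of Sox10, against 0.175, 0.280 and 0.108 CPM in the other 3 rats of its group. Its summed level of 9 Schwann cell markers was 1029 CPM, against 78.5 to 221 CPM in the other 3 rats, where Ncam1, which muscle and other cells also make, was 65.3% to 86.0% of the sum. Without Ncam1 the sum was 944 CPM against at most 38.3 CPM. Its neurofilament genes Nefl and Nefm, of axons, had 26.9 and 33.6 CPM. The other axon and sensory neuron markers were split. Uchl1, Scn9a, Scn10a and Stmn2 were highest of the group in this rat, at 922, 71, 17 and 6 counts. Nefh, Prph, Tubb3 and Calca lay within the range of the other 3 rats, at 43, 16, 453 and 1 counts. Folds of the 8 genes that use this rat are given with and without it. In tissue markers, sensory nerve+ replicate 2 of day 14 had 298 CPM of summed skeletal muscle markers against 17076 to 29306 CPM in its group, and sensory nerve+ replicate 3 of day 7 had 400.4 CPM of epithelial markers against 2.01 to 16.8 CPM. The sensory nerve− rats of day 7 were deposited in a table of their own, so at day 7 the table and the transection cannot be told apart.

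Mbp and Pmp22 encode proteins of compact myelin. Mbp, which holds the inner faces of the membrane together, had 398, 66.0, 92.0 and 138 CPM at day 14 with the nerve intact and 39.8, 50.7, 39.0 and 33.3 CPM with the nerve transected. The groups did not overlap, and both lay above all rats of days 3 and 7 except the sensory nerve− rat that stood apart. Over days 3 and 7, Mbp ranged from 2.70 to 11.2 CPM in the other 14 rats, and that rat had 292 CPM. Pmp22, a membrane protein of compact myelin that many other cells also make, had 533, 60.1, 152 and 239 CPM in sensory nerve+ and 28.9, 49.2, 77.4 and 34.2 CPM in sensory nerve− rats of day 14. Sensory nerve+ replicate 2 lay within the range of the sensory nerve− group, so the groups overlapped. The median of Pmp22 was between 41.7 and 80.9 CPM in the 5 groups other than sensory nerve+ day 14, and each group overlapped with the next in order.

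Prx, Mag and Cldn19 encode proteins of the Schwann cell's contacts and channels. Mag, an adhesion protein on the membrane next to the axon, had 343, 39, 60 and 171 counts in the sensory nerve+ rats of day 14, which is 18.8, 1.94, 3.45 and 9.80 CPM. The sensory nerve− rats of that day had 1, 0, 3 and 1 counts. In the 15 rats of days 3 and 7, Mag had 0 to 8 counts. Of these 19 rats, 17 had 3 counts or fewer, the floor under which a count cannot be told from 0 here. Cldn19, a tight junction protein of myelinating Schwann cells, had 802, 68, 144 and 482 counts at day 14 of sensory nerve+ rats and 1, 5, 13 and 3 counts at day 14 of sensory nerve− rats. Both genes thus separated the sensory nerve+ rats of day 14 from the sensory nerve− rats of the same day without overlap. In the sensory nerve− rat of day 3 that stood apart, Cldn19 had 194 counts while Mag had 4. Prx, which encodes periaxin, a scaffold protein that anchors the myelin sheath, had 127, 11.7, 30.0 and 61.2 CPM in sensory nerve+ and 3.66, 9.91, 8.76 and 6.32 CPM in sensory nerve− rats of day 14. The groups did not overlap, but sensory nerve+ replicate 2 was under the highest rat of sensory nerve+ day 7, which had 12.04 CPM.

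Ugt8 makes galactosylceramide, the main glycolipid of myelin. At day 14 it had 38.2, 19.6, 6.61 and 21.9 CPM in sensory nerve+ rats and 1.79, 1.86, 2.30 and 4.85 CPM in sensory nerve− rats, without overlap. At day 7 it had 0.344 to 0.844 CPM in sensory nerve+ and 0.147 to 0.505 CPM in sensory nerve− rats. At day 3 the sensory nerve− rat that stood apart had 74.8 CPM, the highest of the 23 rats.

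The transcription factors did not share a pattern. With the nerve intact, Sox10 had 0.131, 0.191 and 0.155 CPM at day 3, 1.57, 4.38, 1.88 and 0.422 CPM at day 7 and 69.9, 15.5, 35.4 and 46.8 CPM at day 14. In sensory nerve− rats it had 0.898, 0.979, 0.342 and 1.54 CPM at day 7 and 3.98, 20.3, 16.2 and 6.13 CPM at day 14. At day 14 the groups overlapped, because sensory nerve− replicates 2 and 3 were above the lowest sensory nerve+ rat. Egr2 had 24.8, 13.8 and 17.6 CPM as medians of the sensory nerve+ groups of days 3, 7 and 14, and 20.7, 12.5 and 7.83 CPM in the sensory nerve− groups. The 6 groups of Egr2 overlapped with the next in order of median, except for sensory nerve− day 14, the lowest, which lay at 4.23 to 8.88 CPM below the 10.1 to 49.0 CPM of sensory nerve− day 7. At day 14 it had 16.7, 3.84, 19.4 and 18.4 CPM in sensory nerve+ rats and 4.23, 7.66, 7.99 and 8.88 CPM in sensory nerve− rats, with sensory nerve+ replicate 2 below all the others. Egr2 is also an immediate early gene of macrophages and other cells. Across the 23 rats, Spearman's rho of Egr2 was −0.31 with Sox10, −0.13 with Mag and 0.53 with Pmp22, whereas Sox10 had 0.78 with Prx and 0.79 with Ugt8. These correlations are descriptions over rats that share group and day.

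**Figure D1:**
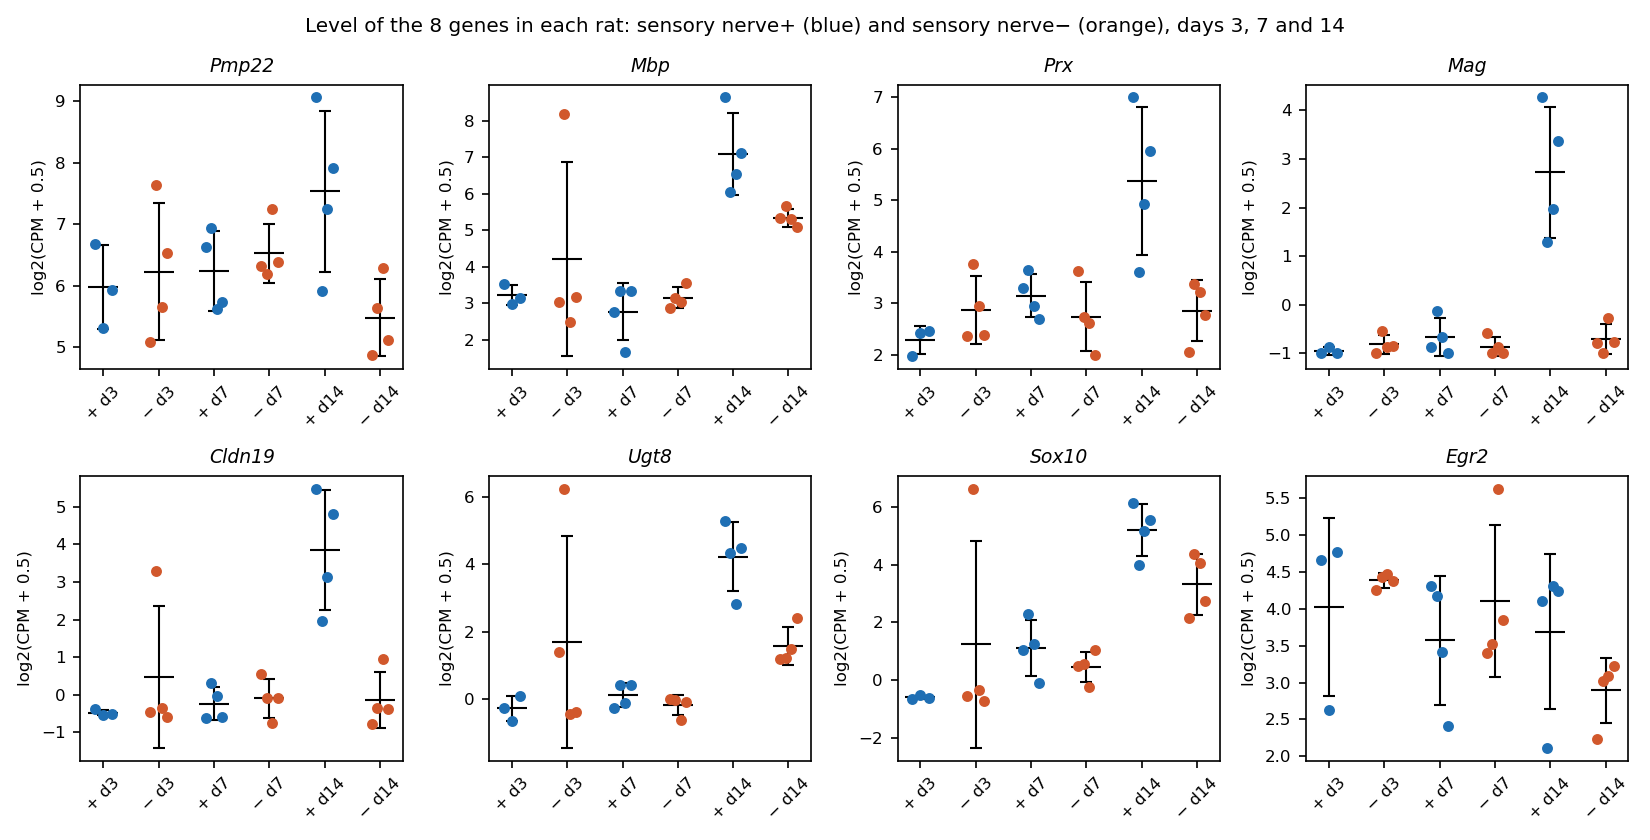
Level of each of the 8 genes as log2(CPM + 0.5) on the y axis, with 1 point per rat, by group on the x axis (sensory nerve+ in blue and sensory nerve− in orange, d for day). Horizontal marks and bars are the mean and SD of the group on this scale. Sensory nerve+ rats of day 14 stand highest for 7 of the 8 genes by median, and 1 sensory nerve− rat of day 3 stands far above its group for Mbp, Cldn19, Ugt8 and Sox10.

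The comparison of day 14 addressed whether the genes differed between tissue with and without its sensory nerve once healing was under way. All 8 genes passed the filter on low counts, Mag and Cldn19 through the sensory nerve+ group, where they were high. All 8 had a negative log2 fold change (sensory nerve− relative to sensory nerve+) in edgeR. The value was −6.21 ± 1.09 (SE) for Mag, −5.41 ± 1.09 for Cldn19, −3.01 ± 0.57 for Ugt8 and −3.0 ± 0.72 for Prx. It was −2.37 ± 0.66 for Pmp22, −2.09 ± 0.55 for Mbp, −1.84 ± 0.63 for Sox10 and −1.03 ± 0.49 for Egr2. Mag had 1, 0, 3 and 1 counts in the sensory nerve− rats, so its fold rests on the floor and is no measure of size. Cldn19 had 1, 5, 13 and 3 counts there, so the size of its fold is uncertain. Without sensory nerve+ replicate 2 the 8 genes lay between −6.61 for Mag and −1.39 for Egr2, each farther from 0 than with it. The direction held with DESeq2, with RLE size factors or library totals as the scale, without the filter, with the replicate block, in 1 fit of all 23 rats and in the fits that each left out 1 rat. The median over the 8 genes was −2.69, and over all 14610 genes tested it was 0.03. Scaling by the library total moved the median of all genes to −0.41, and the 8 genes then lay between −6.77 and −1.43. Sensory nerve− rats lay below all sensory nerve+ rats in 5 of the 8 genes (Mbp, Prx, Mag, Cldn19 and Ugt8), as they did in 1.96% of all genes. At an adjusted p under 0.05, edgeR's quasi-likelihood test called 0 of all genes and 0 of the 8 (0% called). DESeq2 called 6 of the 8 genes, and 0.668% of all genes. As the genes were chosen with these rats known, nothing is read from these counts.

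**Figure D2:**
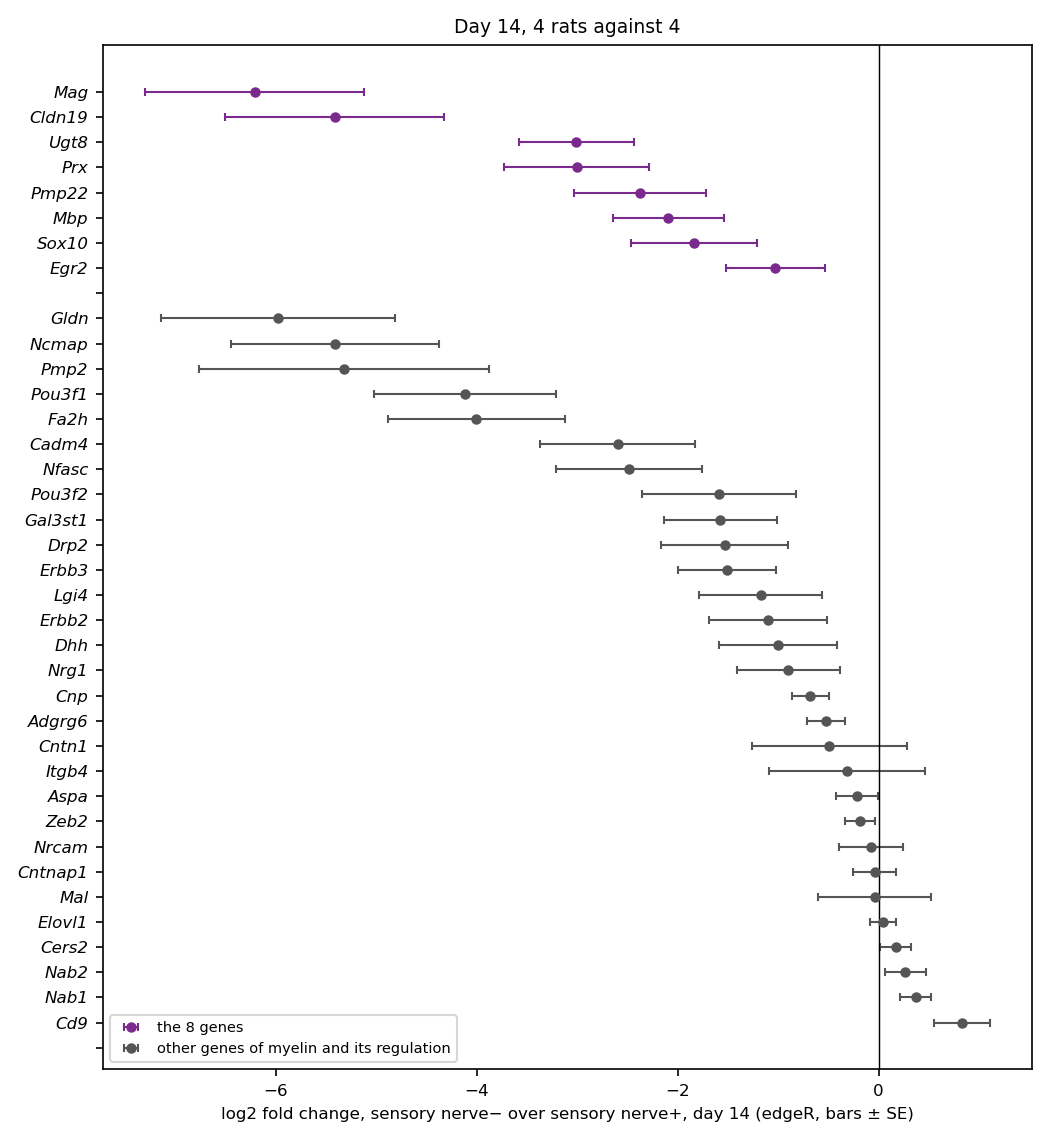
Log2 fold change of day 14 (x axis, sensory nerve− over sensory nerve+, edgeR) for the 8 genes in purple and for genes of a wider list of myelin and its regulation in grey, each gene on its own row. Points are estimates and bars are ± SE, from 4 rats against 4. The 8 genes lie between −6.21 and −1.03, and the wider list between −5.98 and 0.83. The value of Mag rests on sensory nerve− counts at the floor and is no measure of size.

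The other 32 genes of myelin and its regulation were listed by role, with the 8 genes left out and, like them, with earlier results of these rats known. At day 14, 31 of the 32 were tested and 0 had an adjusted p under 0.05 in edgeR (15 at an unadjusted p under 0.05, against 9.32% of all genes). DESeq2 called 7, all lower in sensory nerve− rats, beside 0.668% of all genes. As the list was chosen with these rats known, nothing is read from its counts of genes called or without overlap, here or between days. Of the 15, 13 were lower and 2 higher, Cd9 and Nab1, and with scaling by the library total 18 were lower and 0 higher. Their median log2 fold change was −0.90, and 5 of 31 were positive. In 8 of the 31, sensory nerve− rats lay below all sensory nerve+ rats, as they did in 1.96% of all genes. By role as listed, the 13 lower genes were 4 of 7 compact myelin proteins, 4 of 8 adhesion, channel and node proteins, 2 of 5 enzymes of myelin lipids and 3 of 11 regulators and signals. Ncmap was listed and counted with the compact myelin proteins, though its protein is one of noncompact myelin. The 2 with the smallest p were Ncmap and Gldn, which encodes gliomedin, a Schwann cell protein that gathers sodium channels at nodes. Ncmap had 32.4, 2.34, 4.31 and 6.47 CPM in sensory nerve+ and 0.163, 0.507, 0.110 and 0.183 CPM in sensory nerve− rats, a log2 fold change of −5.41 ± 1.04 (SE, edgeR adjusted p = 0.519, DESeq2 adjusted p = 1.44e-05). Gldn had 33.3, 2.09, 5.28 and 17.3 and 0, 0.282, 0.548 and 0.0916 CPM, a log2 fold change of −5.98 ± 1.16 (SE, edgeR adjusted p = 0.519, DESeq2 adjusted p = 1.44e-05). Pmp2, Fa2h, Pou3f1 and Cadm4 were also called by DESeq2 and are named for that, after their values were seen. Ncmap, Gldn, Pmp2, Fa2h and Pou3f1 passed the filter through the sensory nerve+ group, where they were high. In sensory nerve− rats of day 14 they had 0 to 9 counts, except 19 of Pmp2 in replicate 3, so the sizes of their folds are uncertain. Pmp2, a fatty acid binding protein of myelin, had −5.32 ± 1.44, Fa2h, which makes hydroxylated fatty acids of myelin lipids, −4.00 ± 0.88, Pou3f1, a transcription factor that acts ahead of Egr2, −4.12 ± 0.91, and Cadm4, an adhesion protein that Schwann cells hold against the axon, −2.60 ± 0.77 (log2, SE). Mal, Cntnap1 and Elovl1 of the same list, also named after their values were seen, had log2 fold changes of −0.04 ± 0.56, −0.04 ± 0.22 and 0.05 ± 0.13 (SE).

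Skeletal muscle markers also differed between rats of day 14. Summed over 10 genes, their level was 298 to 29306 CPM in sensory nerve+ and 255 to 7709 CPM in sensory nerve− rats. The ranges overlapped. Sensory nerve+ replicate 2, the lowest of its group in 7 of the 8 genes (all but Ugt8), had 298 CPM of these muscle markers. The summed level of 9 Schwann cell markers was 167 to 607 against 174 to 295 CPM (110.1 to 459 against 121 to 225 CPM without Ncam1), and that of 10 axon and sensory neuron markers 13.8 to 49.5 against 10.7 to 29.7 CPM. Perineurium and endoneurial fibroblast markers, 5 genes, gave 43.6 to 153 against 40.6 to 156 CPM, and 6 macrophage markers 401 to 908 against 554 to 1384 CPM. The part of these tissues in the result was not tested. Markers of oligodendrocytes, the myelinating cells of the brain, summed over 6 genes to 0.804 to 3.55 CPM over the 23 rats, with 0 to 0.986 CPM of the defining marker Mog and 13 to 39 counts of Hapln2 in each rat. Melanocytes also depend on Sox10, and their 6 markers summed to 21.4 to 105 CPM, with 0 to 0.197 CPM of the defining enzyme Tyr and 166 to 1522 counts of Mitf, a factor that macrophages also make. Tyrp1 of this list had 210 counts in the sensory nerve− rat of day 3 that stood apart and 0 to 7 in the other 22 rats, and the part of melanocytes in that rat's Sox10 was not tested.

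**Figure D3:**
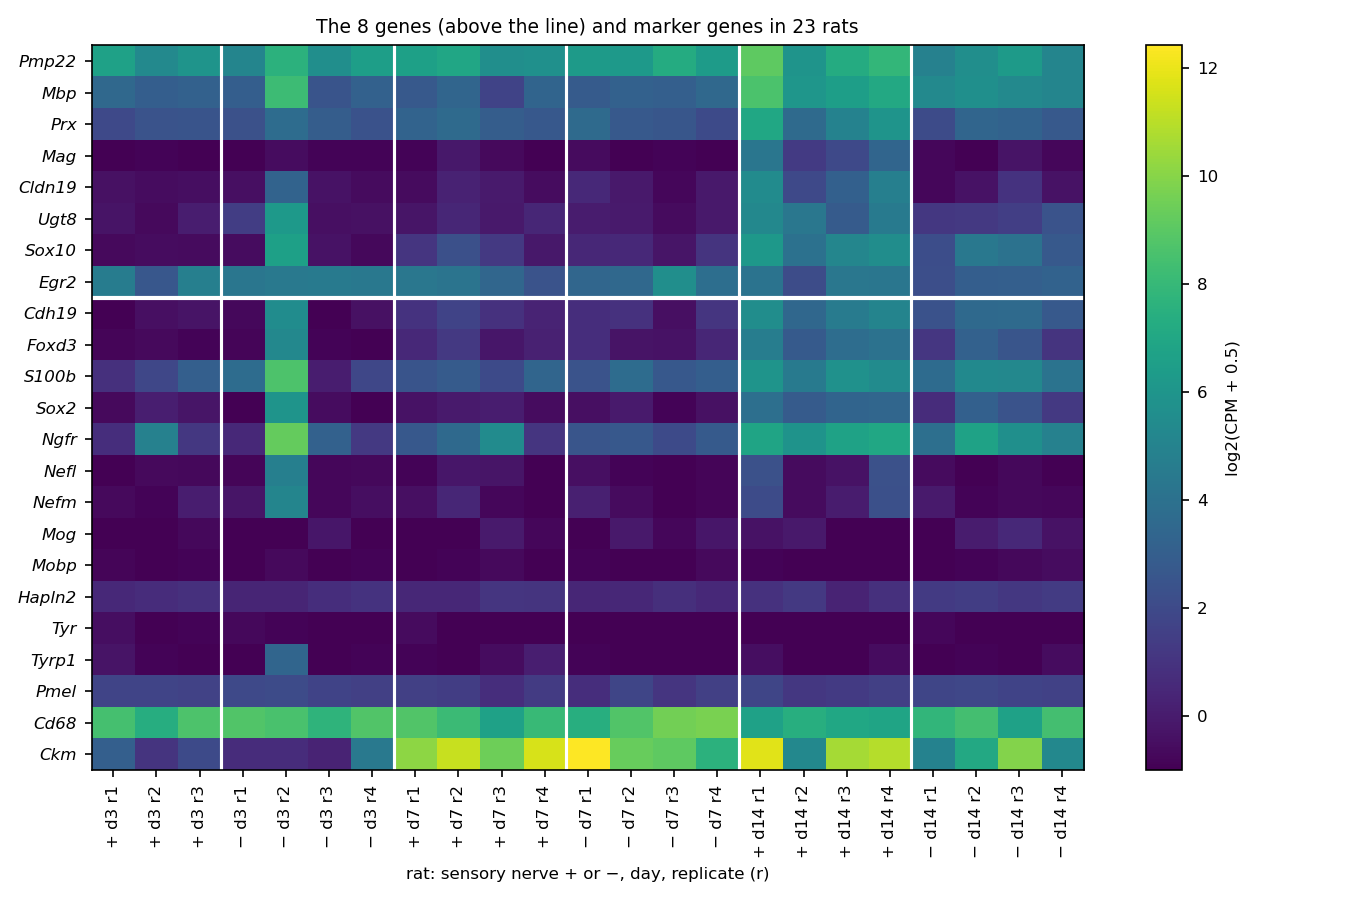
Levels as log2(CPM + 0.5), shown by colour, of the 8 genes (above the white line) and of marker genes of Schwann cells, axons, oligodendrocytes (Mog, Mobp, Hapln2), melanocytes (Tyr, Tyrp1, Pmel), macrophages (Cd68) and muscle (Ckm), with 1 column per rat. Sensory nerve− replicate 2 of day 3 has high Ngfr, S100b, Nefl, Nefm and Tyrp1, while Mog, Mobp and Tyr stay under 1 CPM in all rats.

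In the sensory nerve− rats of day 14, Sox10 had 49, 361, 148 and 67 counts while Mag had 0 to 3 and Cldn19 1 to 13. To set myelin genes against the lineage, counts were divided by those of Sox10 in the 11 rats with at least 40 Sox10 counts, a limit set after the values were seen. These ratios depend on gene length and are compared only between rats. At day 14, Mag per Sox10 count was 0.269, 0.126, 0.0974 and 0.210 for sensory nerve+ rats. For sensory nerve− rats it was 0.0204, 0, 0.0203 and 0.0149, from 1, 0, 3 and 1 counts, and the floor of 3 counts would give 0.0612, 0.00831, 0.0203 and 0.0448. Neither range reached those of sensory nerve+ rats. Cldn19 per Sox10 count was 0.219 to 0.628 in sensory nerve+ and 0.0139 to 0.0878 in sensory nerve− rats, also without overlap. Mbp per Sox10 count was 2.60 to 5.70 in sensory nerve+ and 2.41 to 9.98 in sensory nerve− rats, Ugt8 gave 0.187 to 1.27 and 0.0914 to 0.791, Pmp22 3.89 to 7.63 and 2.42 to 7.24, and Prx 0.758 to 1.82 and 0.488 to 1.03, with overlap in each. Mbp, Pmp22 and Prx were also found where Sox10 was near 0. Sensory nerve+ rats of day 3, with 2, 4 and 3 counts of Sox10, had 169, 156 and 163 of Mbp. They had 1554, 826 and 1170 of Pmp22 and 52, 102 and 97 of Prx. The ratios of Mbp, Pmp22 and Prx are thus no measure per Schwann cell, and the part of other cells in them was not tested. In the 2 sensory nerve+ rats of day 7 among the 11, the ratios were 0.0682 to 0.0952 for Mag (3 and 8 counts), 0.167 to 0.250 for Cldn19, 1.43 to 2.21 for Mbp, 2.75 to 3.84 for Prx and 26.0 to 27.9 for Pmp22. Of the lineage genes, Cdh19 had ratios of 0.654 to 0.694 and 0.568 to 1.20, and Foxd3 of 0.346 to 0.419 and 0.254 to 0.429, which overlapped. S100b, a calcium-binding protein of Schwann cells, had 0.863 to 1.52 in sensory nerve+ and 2.02 to 3.16 in sensory nerve− rats, which did not overlap. S100b also had 20, 65 and 155 counts in sensory nerve+ rats of day 3, where Sox10 had 2, 4 and 3. The part of other cells in the ratio of S100b was not tested. The sensory nerve− rat of day 3 that stood apart had ratios of 0.00192 for Mag, 0.0932 for Cldn19 and 2.94 for Mbp. Its Mag ratio was within the range of sensory nerve− day 14, and its Mbp ratio within the ranges of both groups of day 14. These ratios are a description, with no test, since both the genes and Sox10 were chosen with the rats known.

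**Figure D4:**
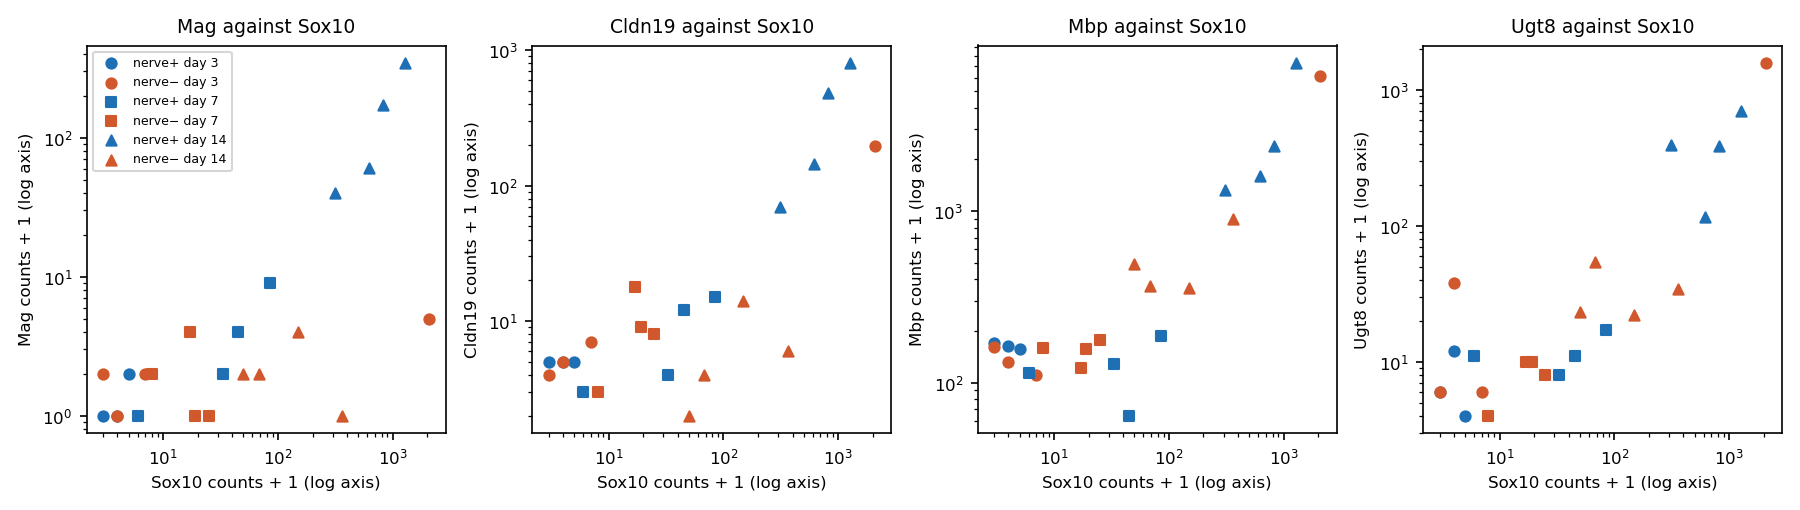
Counts plus 1 of Mag, Cldn19, Mbp and Ugt8 (y axis) against counts plus 1 of Sox10 (x axis), both on log axes, with 1 point per rat (circles day 3, squares day 7, triangles day 14; blue sensory nerve+, orange sensory nerve−). At Sox10 counts of 49 to 361, the orange triangles of Mag stay at 0 to 3 counts, while those of Mbp lie at 356 to 901 counts.

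Over time in the sensory nerve+ group, the values of 6 of the 8 genes were higher in all 4 rats of day 14 than in any rat of day 7 when scaled within these 8 rats. Prx, 1 of the 6, overlapped when scaled over all 23 rats. From day 7 to day 14 the log2 fold change was 5.73 ± 1.06 (SE) for Mag, 5.73 ± 0.97 for Cldn19, 5.17 ± 0.61 for Ugt8, 4.65 ± 0.71 for Mbp and 4.34 ± 0.71 for Sox10. It was 2.76 ± 0.67 for Prx, 1.63 ± 0.63 for Pmp22 and 0.19 ± 0.56 for Egr2. Mag had 1, 8, 3 and 0 counts at day 7, so its fold is no measure of size. The 6 genes without overlap were all but Pmp22 and Egr2, and of all genes the rats were higher without overlap in 2.58%. At an adjusted p under 0.05 edgeR called 0 of the 8 (0.0202% of all genes) and DESeq2 called 6 (2.05%). From day 3 to day 14, Sox10 had 7.98 ± 0.70, Cldn19 6.55 ± 1.11, Ugt8 5.96 ± 0.79, Mbp 4.29 ± 0.72 and Prx 3.71 ± 0.83, and Pmp22 and Egr2, which overlapped, had 1.90 ± 0.73 and −0.36 ± 0.66. Mag went from 0, 1 and 0 counts at day 3 to 343, 39, 60 and 171 counts at day 14, and no fold is given for it because day 3 held 1 count. In 6 of the 8 genes all rats of day 14 were above those of day 3, as in 10.9% of all genes. EdgeR called 6 of the 8 in this comparison and DESeq2 7, against 5.78% and 20.7% of all genes. Mag, Cldn19, Ugt8 and Sox10 passed its filter through the rats of day 14, where they were high. The genes were chosen with these rats known, so nothing is read from their calls or overlaps between any days. The 6 calls of edgeR were 0 without replicate 1, 3 or 4 of day 14 or replicate 3 of day 3, 1 and 2 without replicates 1 and 2 of day 3, and 7 without replicate 2 of day 14. The 871 calls over all genes moved with them. They were 0 to 2 in the fits with 0, 177 of 15417 and 257 of 15285 in those with 1 and 2, and 3133 of 14898 in that with 7. From day 3 to day 7, Sox10 was 3.69 ± 0.83 and Prx 1.01 ± 0.31, both higher in all rats of day 7, as were 12.4% of all genes, and the other 4 genes tested lay between −0.51 and 0.85. Of these 6 genes edgeR called 1, Sox10, beside 6.67% of all genes, and DESeq2 2, beside 16.7%. That call was kept only without replicate 4 of day 7 among the fits that left out 1 rat, where 510 of 14911 genes were called. The summed skeletal muscle markers were 36.0 to 82.1 CPM at day 3 and 6028 to 25646 CPM at day 7, and their part in the differences between days was not tested.

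Among the wider list, 9 of 31 tested genes rose between day 3 and day 14 in the sensory nerve+ group and 0 fell (edgeR, adjusted p under 0.05, 5.78% of all genes called). The 3 with the smallest p were Cnp, an enzyme of myelin membranes, Lgi4, a secreted Schwann cell protein needed for myelination, and Pou3f2, a transcription factor of Schwann cells also called Brn2. Their log2 fold changes were 2.01 ± 0.19, 3.97 ± 0.69 and 8.51 ± 1.23 (SE, edgeR adjusted p = 0.0165, 0.0373 and 0.0400). Pou3f2 had 0, 0 and 0 counts in the rats of day 3 and 72, 17, 27 and 61 at day 14, so its fold change depends on the prior count and is no measure of size. The count of 9 changed with single rats: it was 15 without sensory nerve+ replicate 2 of day 14, 1 without replicate 1 or replicate 2 of day 3, and 0 without replicate 1, 3 or 4 of day 14 or replicate 3 of day 3. So did the calls over all genes, 871 with all rats. They were 3133 in the fit with 15, 177 and 257 in those with 1, and 0 to 2 in those with 0. Between day 7 and day 14, 0 of 31 were called by edgeR (15 at an unadjusted p under 0.05, all higher, against 9.42% of all genes) and 12 by DESeq2 (2.05% of all genes). Cnp had 1.44 ± 0.22 (SE, edgeR adjusted p = 0.105) and Fa2h 5.30 ± 0.87 (edgeR adjusted p = 0.141). Between day 3 and day 7, 0 of 26 were called by edgeR (10 at an unadjusted p under 0.05, 7 of them higher, against 24.8% of all genes) and 6 by DESeq2 (16.7% of all genes). Lgi4 had 1.98 ± 0.48 and Gldn 3.47 ± 0.91 (SE, edgeR adjusted p = 0.0552 and 0.0697).

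In the sensory nerve− group, Mbp, Ugt8 and Sox10 were higher at day 14 than at day 7 while Mag and Cldn19 stayed under the filter on low counts. Mbp had a log2 fold change of 2.27 ± 0.21 (SE), Ugt8 of 2.76 ± 0.51 and Sox10 of 3.64 ± 0.65, each without overlap. Prx had 0.09 ± 0.43 and Pmp22 −1.01 ± 0.36, with overlap, and Egr2 −1.54 ± 0.55, with all rats of day 14 below those of day 7. The value of Prx was −0.31 when scaled by the library total. Higher at day 14 without overlap were 3 of the 6 genes tested and 5.25% of all genes, and lower 1 of the 6 and 7.00%. EdgeR called 1 of the 6, Mbp, beside 0.0138% of all genes, and DESeq2 3, beside 12.7%. EdgeR called 0 without replicate 1 or 4 of day 14 or replicate 2 or 3 of day 7 and with scaling by the library total, and 3 without replicate 2 of day 14. Over all genes it called 0 in the first 4 of these fits. It called 21 of 14447 with the library total and 814 of 14650 without replicate 2 of day 14. Summed skeletal muscle markers of sensory nerve− rats were 24.9 to 555, 2451 to 42641 and 255 to 7709 CPM at days 3, 7 and 14, and epithelial markers 34.6 to 527, 2.45 to 9.09 and 3.39 to 5.37 CPM, and their part in these differences was not tested. The fits of day 3 rested on the rat that stood apart. From day 3 to day 14, Sox10 was −1.13 ± 1.82 with that rat and 5.84 ± 0.81 without it, Mbp was −0.98 ± 1.25 and 2.49 ± 0.24, and Ugt8 −2.89 ± 1.68 and 1.59 ± 0.86. Their direction turned, whereas Egr2 was −1.54 ± 0.23 and −1.53 ± 0.27. From day 3 to day 7, Sox10 was −4.76 ± 2.15 with it and 2.25 ± 0.64 without it, and Mbp −3.22 ± 1.37 and 0.27 ± 0.26. EdgeR called 1 of 6 genes between days 3 and 14, Egr2, beside 23.5% of all genes, and 0 of 5 between days 3 and 7, beside 10.5%. Without the rat that stood apart, 3 of 6 were called between days 3 and 14, beside 1815 of 14626 genes. DESeq2 called 1 of 6 and 0 of 5, beside 30.3% and 19.8%. As the genes were chosen with these rats known, nothing is read from their calls or overlaps in this group.

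**Figure D5:**
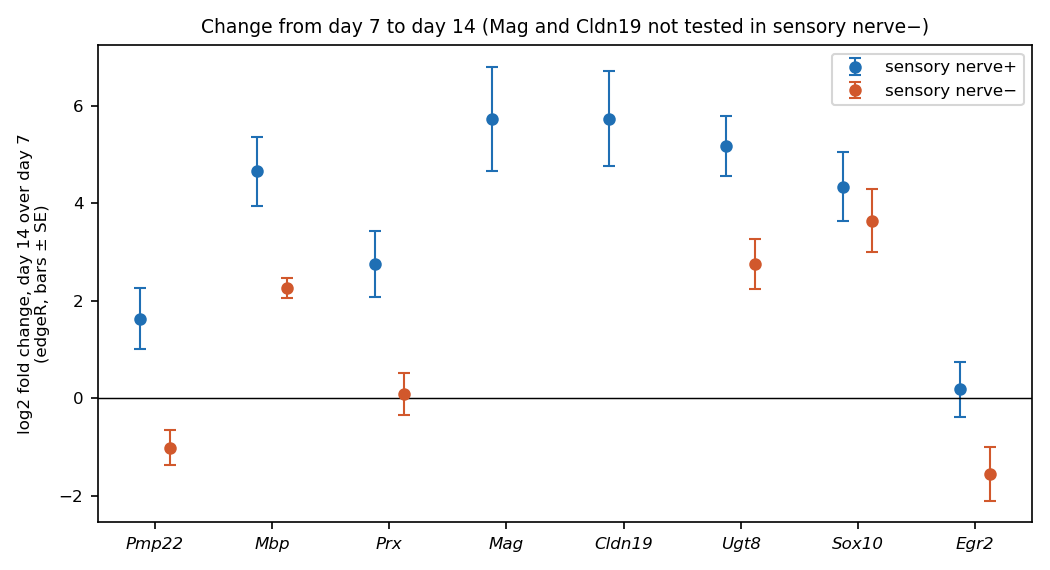
Log2 fold change of day 14 over day 7 (y axis, edgeR, bars ± SE) for each of the 8 genes (x axis), in sensory nerve+ (blue) and sensory nerve− rats (orange), 4 rats per day and group. Mag and Cldn19 have no orange point because they were not tested there, and Sox10 has close values in both groups, 4.34 and 3.64.

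Of the wider list in the sensory nerve− group, 6 of 24 tested genes were called between day 3 and day 14 (edgeR), 1 higher and 5 lower. Of all genes 23.5% were called in this comparison, a share close to that of the list, so nothing is read from the count. Scaled by the library total, 2 of the list were called, both lower. Mal, a lipid raft protein of myelin that epithelia also make, rose by 2.35 ± 0.61 (SE, log2, edgeR adjusted p = 0.0281), with overlap between the rats. Of the 5 that fell, the 3 with the smallest p were Elovl1 at −0.54 ± 0.12 and Cers2 at −0.58 ± 0.16, enzymes of very long chain lipids that most cells use, and Zeb2 at −0.62 ± 0.14, a transcription factor also made by macrophages (edgeR adjusted p = 0.0176, 0.0309 and 0.0195). The count was 2 of the list without sensory nerve− replicate 1, 3 or 4 of day 14 or replicate 1 or 4 of day 3, and 5, of which 3 rose, without replicate 2 of day 3. Over all genes, 3396 calls with all rats became 1620 to 2477 in the fits with 2 and 1815 in the fit with 5. Without replicate 2 of day 3, Elovl1 and Cers2 were no longer past the threshold (edgeR adjusted p = 0.0522 and 0.0674). Between day 3 and day 7, 0 of 23 were called by edgeR (3 at an unadjusted p under 0.05, against 28.8% of all genes) and 2 by DESeq2 (19.8% of all genes). Erbb3, a neuregulin receptor, had −1.94 ± 0.65 (−1.0 ± 0.40 without the rat that stood apart) and Nab2, a corepressor of Egr2, −0.44 ± 0.17 (SE, edgeR adjusted p = 0.0942 and 0.133). Between day 7 and day 14, 0 of 23 were called by edgeR (7 at an unadjusted p under 0.05, against 23.5% of all genes) and 6 by DESeq2 (12.7% of all genes). Cnp had 0.84 ± 0.19 and Mal 2.21 ± 0.54 (SE, edgeR adjusted p = 0.104 and 0.104).

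Whether the change over time differed between the groups was examined with an interaction of transection and day in 1 edgeR fit of all 23 rats, added after the data had been seen. For day 14 minus day 7, sensory nerve− minus sensory nerve+, the log2 difference was −5.69 ± 1.70 (SE) for Cldn19, −4.79 ± 1.79 for Mag, −2.64 ± 0.77 for Prx, −2.62 ± 0.83 for Pmp22, −2.39 ± 1.74 for Ugt8, −2.37 ± 1.31 for Mbp, −1.71 ± 0.81 for Egr2 and −0.67 ± 1.90 for Sox10. Sox10 thus had the smallest difference relative to its error, also without the rat that stood apart. That rat entered the errors through the fit of all rats. Without it, Sox10 had −0.68 ± 0.86, Mbp −2.37 ± 0.64, Ugt8 −2.39 ± 0.96 and Cldn19 −5.69 ± 1.19. The errors of Mag, Prx, Pmp22 and Egr2 changed little. Mag had 3, 0, 1 and 0 counts at day 7 and 1, 0, 3 and 1 at day 14 in sensory nerve− rats, so its difference rests on the floor and is no measure of size. For day 14 minus day 3, Sox10 had −9.05 ± 2.39 with the rat that stood apart and −2.07 ± 1.17 without it. No value is given for Mag, which had 0, 1 and 0 counts in sensory nerve+ rats of day 3. Neither interaction had a gene at an adjusted p under 0.05 among the 15858 tested (0% in edgeR, with 3.85% and 6.49% at an unadjusted p under 0.05 for days 7 and 3), and no other tool was run for it.

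At days 3 and 7 the groups of rats overlapped in all 5 of the 8 genes that were tested between sensory nerve− and sensory nerve+ (without overlap were 1.67% of all genes at day 3 and 0.768% at day 7). At day 3 the log2 fold change of sensory nerve− relative to sensory nerve+ was 3.12 ± 1.65 for Mbp, 0.48 ± 0.64 for Pmp22, 0.73 ± 0.44 for Prx and 0.10 ± 0.46 for Egr2, and without the rat that stood apart it was −0.36 ± 0.27, −0.21 ± 0.48, 0.30 ± 0.32 and 0.08 ± 0.54. Ugt8 had 5.79 ± 2.44 with that rat and was not tested without it. At day 7 Mbp had 0.28 ± 0.39, Pmp22 0.26 ± 0.36, Prx −0.36 ± 0.39, Egr2 0.71 ± 0.62 and Sox10 −1.15 ± 0.68. Each of these was less than 2 times its SE. Without sensory nerve− replicate 3, the values of Pmp22 and Egr2 at day 7 were −0.06 and −0.16. At either day edgeR called 0 of the 5 and 0% of all genes (0.830% and 1.46% at an unadjusted p under 0.05 at days 3 and 7), and DESeq2 0 of the 5 and 0% and 0.00529% of all genes. In the wider list edgeR called 0 of 25 at each day (1 and 0 at an unadjusted p under 0.05), and DESeq2 0. The smallest p at day 3 were those of Nrg1, the axonal signal for myelination, at −1.38 ± 0.38 (SE, edgeR adjusted p = 1.00) and Dhh, a signal from Schwann cells to the perineurium, at 2.96 ± 1.46 (edgeR adjusted p = 1.00, and 0.41 ± 0.63 without the rat that stood apart), and at day 7 those of Drp2, a partner of periaxin, at −0.93 ± 0.47 and Gldn at −2.0 ± 1.07 (edgeR adjusted p = 1.00 for both). With the days pooled and day as a factor, the 8 genes lay between −2.95 for Mag and 0.13 for Mbp with the rat that stood apart. Without it, Mag was −3.68 ± 1.01, Cldn19 −1.82 ± 0.92, Sox10 −1.26 ± 0.41 and Mbp −0.75 ± 0.36. Mag had 3 counts or fewer in 17 of the 19 rats outside sensory nerve+ day 14, so its pooled folds are no measure of size. EdgeR called 0 of the 8, 0 of 32 in the wider list (4 at an unadjusted p under 0.05) and 0% of all genes (5.11% at an unadjusted p under 0.05), and DESeq2 0 of the 8, 0 of 32 and 0.00505% of all genes. Cd9, a tetraspanin of many cells, had 0.48 ± 0.19 and Nab1, a corepressor of Egr2, 0.18 ± 0.08 (SE, edgeR adjusted p = 0.860 and 0.860).

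The 10 genes most like the 8 were those with the highest Spearman correlation, over the 23 rats, with the mean of the standardized levels of the 8, among 15850 genes. They were Grin2b at 0.911, Adamts9 at 0.854, Gjc3 at 0.851, Shc4 at 0.826, Nr2f1 at 0.821, Cnp at 0.807, Lgi4 at 0.800, Gfra1 at 0.798, Scn7a at 0.798 and Zfp536 at 0.795. Cnp and Lgi4 are in the wider list, and Scn7a, a sodium channel, is among the Schwann cell markers. Of the 32 genes of the wider list, 7 were among the first 100. Over the 16 rats of days 7 and 14 alone, 6 of the 10 were again among the first 10, and with Pearson's correlation 1 was, Grin2b.

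Macrophages were examined because Egr2, Mbp and Pmp22 are also made outside Schwann cells, and because their cultures had no part in the choice of the genes. The 11 cultures held 55614185 to 71538840 reads each. Sox10, Cldn19 and Ugt8a, the mouse name of Ugt8, had 0 reads in all 11, which allows up to 3 reads per culture. The other 5 genes passed the filter and were tested with limma over all 13492 genes, of which 0.0222% were called. Pmp22 (mm10 chr11:63128982-63159547, plus strand) had 51.5 ± 2.07 CPM (SD, n = 6) with LPS alone and 50.4 ± 1.82 CPM (SD, n = 5) with LPS and CGRP, a log2 fold change of −0.03 ± 0.03 (SE, limma adjusted p = 0.758). Mbp had 62.8 ± 2.01 CPM (SD, n = 6) with LPS alone and 64.0 ± 1.38 CPM (SD, n = 5) with LPS and CGRP, a log2 fold change of 0.03 ± 0.02 (SE, limma adjusted p = 0.729). Egr2 (mm10 chr10:67535475-67542188, plus strand) had 9.39 ± 0.225 CPM (SD, n = 6) with LPS alone and 9.44 ± 0.256 CPM (SD, n = 5) with LPS and CGRP, a log2 fold change of 0.01 ± 0.03 (SE, limma adjusted p = 0.976). Mag (mm10 chr7:30899176-30914873, minus strand) had 5.21 ± 0.335 CPM (SD, n = 6) with LPS alone and 5.41 ± 0.150 CPM (SD, n = 5) with LPS and CGRP, a log2 fold change of 0.05 ± 0.05 (SE, limma adjusted p = 0.759). Prx had 15 to 32 reads per culture and 0.15 ± 0.08 (SE, limma adjusted p = 0.557). CGRP thus gave 0 of the 5 genes an adjusted p under 0.05 in limma, and none was called by edgeR or DESeq2 on the recovered reads. Over all genes, edgeR called 0 of 13525 there, and DESeq2 87 of the 4571 with an adjusted p. As few genes were called at all, nothing is read from the absence of calls. The log2 differences lay between −0.03 and 0.15, and a p that misses the threshold does not show that the levels are equal.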

How the data were processed

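RNA-seq counts of 20022 genes in the healing tissue of 23 rats and of 51912 genes in 11 macrophage cultures were used. For the rats, the authors filtered the reads and aligned them with HISAT to mRatBN7.2, and the deposited values were expected counts per gene, of which 37.0% were whole within 0.01. The counting program is not given in the sources used here, nor is the role of Bowtie2, which the submitters' processing notes also name. For the macrophages, the authors aligned reads with STAR to mm10 and counted them with featureCounts, and the deposited values were a signal of counts divided by a factor per run, from which whole reads were recovered for 100% of values. The 2 runs of a culture were summed and counted as 1 sample. Nothing said that the cultures were grown separately, so their p-values measure only the spread between these samples.

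Expected counts were rounded, filtered with filterByExpr, scaled by TMM and tested in edgeR 4.0.16 (quasi-likelihood F test, R 4.3.3), with each comparison fitted on its own groups. The comparison with the days pooled had day as a factor. The p-values were adjusted over all genes tested by Benjamini-Hochberg with a threshold of 0.05, and SE was the log2 fold change over the root of F. Macrophages were tested in limma 3.58.1 on log2(TMM CPM + 0.5), since the deposited unit was no count, and DESeq2 1.42.0 and other scalings, filters and samples were alternatives. Levels are TMM CPM over all 23 rats. Totals were 14854389 to 18742274 counts per rat, and the floor of 3 counts covers counting error only. The fits were tested on simulated data.

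The 8 genes, the wider list of 32 genes by role and the 11 marker lists were chosen with earlier results of these data known. Genes of the wider list were named by rule: in each comparison the 3 called genes of smallest p per direction, or, where no gene was called, the 2 of smallest p. The 10 most alike genes were ranked on log2(CPM + 0.5). Promoters came from RefSeq (GRCr8), another build than that of the counts, and were used for sequence only. A few genes of these lists were counted with their list but are not reported by name here. Rat gene positions in the counts' build were not used here.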

Additional observations from a re-analysis of the deposited data

Results flagged for a closer look

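Within groups of 4 to 10 samples, 10 of 50 tests over the 8 genes had a highest or lowest sample that stood apart by Dixon's criterion. Chance gives about 1 in 20 for independent, normally distributed values. Genes of the same rat vary together and CPM was not put on a log scale, so the 10 are not read against that rate. Sensory nerve− replicate 2 of day 3 accounted for 4 of them. It had 292 CPM of Mbp against 5.08 to 8.56 CPM in the other 3 rats of its group, and 9.24 CPM of Cldn19 against 0.161 to 0.280 CPM. It had 74.8 CPM of Ugt8 against 0.233 to 2.16 CPM, and 99.2 CPM of Sox10 against 0.108 to 0.280 CPM. In the same rat, Mag had 4 counts, Ngfr, a receptor that Schwann cells without axon contact make, 615 CPM, and S100b 407 CPM. The part of this rat's nerve content in its values was not tested.

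Sensory nerve− replicate 3 of day 7 accounted for 3. It had 150.6 CPM of Pmp22 against 72.3 to 82.8 CPM in the other 3 rats, 49.0 CPM of Egr2 against 10.1 to 14.0 CPM, and 0.147 CPM of Ugt8 against 0.449 to 0.505 CPM. That value of Ugt8 is 3 counts, at the floor, against 7 to 9 counts. In sensory nerve− rats of day 14, replicate 3 had 1.42 CPM of Cldn19 against 0.0813 to 0.282 CPM, and replicate 4 had 4.85 CPM of Ugt8 against 1.79 to 2.30 CPM. Among macrophages with LPS and CGRP, replicate 4 had 5.15 CPM of Mag against 5.45 to 5.51 CPM.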

How the results depend on the processing

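For the wider list, 62 of 72 counts of called genes under another setting stayed within 1.5 times the value reported. DESeq2 called 17 genes between days 3 and 14, 12 between days 7 and 14 and 6 between days 3 and 7 in sensory nerve+ rats, 6 between days 7 and 14 and 2 between days 3 and 7 in sensory nerve− rats, and 7 between the groups at day 14. In sensory nerve− rats, 1 fit of all 23 rats called 5 between days 3 and 7, and scaling by the library total 2 between days 3 and 14. With each rat left out, the counts ranged from 0 to 15 (days 3 and 14), 0 to 2 (days 7 and 14) and 0 to 2 (days 3 and 7) in sensory nerve+ rats, from 2 to 6, 0 to 2 and 0 to 1 in sensory nerve− rats, and were 0 in all other comparisons. The 0 to 2 and 0 to 1 rested on sensory nerve+ replicate 2 of day 14 or replicate 3 of day 7, sensory nerve− replicate 2 of day 14, and sensory nerve− replicate 2 or 3 of day 3, each giving the higher count when left out. Over all genes, in the same order of days, calls ranged from 0 to 3133, 0 to 28 and 254 to 1547 in sensory nerve+ rats. In sensory nerve− rats they ranged from 1620 to 4346, 0 to 814 and 0 to 1359.

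Over all genes, days 3 and 14 of sensory nerve+ rats gave 871 calls, against 3409 in DESeq2, 2606 with all rats in 1 fit and 547 with the library total. Days 7 and 14 gave 3, against 335 and 13 in DESeq2 and the library total, and days 3 and 7 gave 1002, against 2750 and 579. In sensory nerve− rats, days 3 and 14 gave 3396, against 1184 with the library total, days 7 and 14 gave 2, against 2011 in DESeq2, 927 with all rats in 1 fit and 21 with the library total, and days 3 and 7 gave 1524, against 3241 in DESeq2. The library total put the median log2 fold change of all genes at −0.42 and −0.40 for day 14 against days 3 and 7 of sensory nerve− rats, and at −0.16 with the days pooled. The cause of these differences was not tested.

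A replicate block on the rats' numbers left 0 of the wider list between days 3 and 14 in sensory nerve+ rats and 3 in sensory nerve− rats, and it left 0 and 122 calls over all genes between days 3 and 14 and days 3 and 7 of sensory nerve+ rats and 2 between days 3 and 7 of sensory nerve− rats. Of the 8 genes it called 0 between days 3 and 14 and between days 3 and 7 of sensory nerve+ rats and 0 between days 7 and 14 of sensory nerve− rats. The rats share only a number. The correlation of same-numbered rats ranged from −0.345 to 0.397 over the comparisons, and in none was every pair above 0.1 or every rat closest to its own number. In macrophages it ranged from −0.0948 to 0.143.

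Groups of 3 or 4 rats of mixed tissue gave wide errors for the 8 genes, and Mag was at 3 counts or fewer in 17 of the 19 rats outside sensory nerve+ day 14, so a difference there was not detectable at this depth. The groups of day 14 rest on 4 rats that spread over a wide range of muscle and Schwann cell markers.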
